A study of Oryza sativa with 12 samples.

Results

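Transcript levels in shoots of the rice mutant gid2-1 were compared with those of Taichung 65 (T65), the parental cultivar from which the mutant derives. Of the 12 arrays of the study, the 3 titled gid2-1 and the 3 titled Taichung 65 made this comparison, and all 57194 probe sets of the array that are not controls entered it. The other arrays, 3 each, were of gid1-3, a mutant of the gibberellin receptor gene, and of slr1 (k1001), a mutant of the DELLA gene whose loss or gain of function the labels do not state. All 4 lines share the T65 background, were grown in a greenhouse in natural conditions, and were sampled as shoots at 5 weeks after germination. No treatment was given per the labels, and the 3 arrays of a line are labelled as biological replicates. Each mutant is represented by 1 line, and the labels do not give the lesion of gid2-1, the number of plants per replicate or the hour of harvest.

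Gibberellin is the hormone that drives stem and leaf elongation in rice. It binds the soluble receptor GID1, and the complex then takes hold of SLR1, the DELLA protein that represses growth. GID2 is the F-box subunit of an SCF ubiquitin ligase that recognises this bound SLR1 and marks it for destruction, so plants without GID2 keep SLR1, do not respond to gibberellin and stay severely dwarfed. The comparison asks which transcripts stand at another level in the mutant of this last step.

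Values are scaled array signals on a linear scale, given as mean ± SD over 3 arrays. A log2 change is the fitted difference of mean log2 signals, gid2-1 minus T65 unless another line is named, given ± SE. The p-values are limma's, adjusted by Benjamini-Hochberg over the whole array, and those under 0.05 count as calls, so that "rose" and "fell" are said only of called genes. Array medians ran from 58.0 to 75.8, and between 54.7 and 63.1% of probe sets per array lay above the level of the array's blank reporter controls. The ratio of 3' to 5' signal of the actin control was 6.16 to 7.58 on the T65 arrays and 4.95 to 6.002 on those of gid2-1, and that of the cyclophilin control was 2.02 to 2.12 against 1.65 to 1.88. That of the GAPDH control was 3.83 to 4.52 against 3.775 to 6.63. The part of RNA quality in the differences was not tested. In whole shoots, fewer cells of a type and less RNA per cell cannot be told apart.

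The genes of the gibberellin pathway itself moved little beside the largest changes. The probe set paired with GID2 read 9374, 9075 and 9357 on the T65 arrays and 5921, 7174 and 6204 on those of gid2-1, and fell (log2 -0.53 ± 0.07, adjusted p = 2.4e-05). This entry of the reference is named for the 14-3-3 protein GF14E as well and gives no check of the mutant label. The receptor transcript GID1 rose from 4494 ± 48.1 to 6112 ± 432 (log2 0.44 ± 0.06, adjusted p = 1.9e-05), a call lost when its probe sets were averaged. SLR1 read 1234, 1355 and 1296 in T65 and 1103, 1177 and 1124 in gid2-1, and its log2 change of -0.19 ± 0.06 (adjusted p = 0.036) was lost under 8 of 16 other settings. SPY, a glycosyltransferase known to act in gibberellin signalling, rose by 0.47 ± 0.06, while GAMYB, a transcription factor induced by gibberellin in the aleurone, read 471 ± 19.5 and 408 ± 8.34 (log2 -0.20 ± 0.08, adjusted p = 0.071, not called). The DELLA-like SLRL1 read 249 ± 15.1 and 190 ± 16.5 and was not called either (adjusted p = 0.089).

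In gibberellin synthesis, 3 of 7 measured genes rose and 2 fell (3 and 3 with the spiked-control centring described below). Among all 17905 genes on the array 25.4% rose and 25.3% fell, and among the 2457 with a name, from which the lists are drawn, 27.6% and 29.0%. Counts of list members against T65, with the signals as deposited, are to be read against that background. CYP701A6, the ent-kaurene oxidase, read 345, 316 and 311 in T65 and 821, 692 and 647 in gid2-1 (log2 1.15 ± 0.10, adjusted p = 3.5e-07). KAO, which makes the next intermediates, rose from 150 ± 4.79 to 243 ± 19.3 (log2 0.69 ± 0.12, adjusted p = 0.00026). CPS1, the entry enzyme of the pathway, went the other way, from 431, 464 and 462 to 160, 226 and 178 (log2 -1.28 ± 0.12, adjusted p = 9.8e-07), and its arrays did not overlap. GA20ox3 of the late oxidation steps rose by 0.95 ± 0.07, while GA20ox2, the gene of the semi-dwarf varieties, read 249, 306 and 313 in T65 and 330, 370 and 451 in gid2-1 and was not called (adjusted p = 0.061). KS1 was not called (log2 -0.11 ± 0.09), and the fall of EUI1, which inactivates gibberellins (log2 -0.85 ± 0.29), was lost under 8 settings. Of 6 measured 14-3-3 genes, a family that in tobacco binds a transcription factor of gibberellin synthesis, GF14D fell (log2 -0.70 ± 0.05), as did GF14F (log2 -0.18 ± 0.06), the latter a call lost under 9 settings.

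Of all probe sets 7836 (13.7%) rose and 7103 (12.4%) fell in gid2-1, so that 26.1% were called in all, and 4919 (8.60%) were called with a change of at least 2-fold. Among genes, each represented by its brightest probe set, 50.8% were called, 6.63% higher and 7.15% lower by at least 2-fold, and the median log2 change was 0.01. The 3 arrays of gid2-1 did not overlap the 3 of T65 in 62.5% of genes. With the arrays centred on the spiked hybridization controls, which were brighter on the gid2-1 arrays, the median over all genes was -0.21, and the calls were 4631 higher against 10440 lower. Of all genes 14.7% rose and 36.2% fell on that scale, which is the background for list counts given there. Counts on that scale are given below for lists whose balance of rises and falls turned there, and for lists described as higher whose count of rises moved by over 1.5 times.

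The 20 largest rises were taken among named genes with signal at or above the median and no overlap between arrays. They included genes of nitrogen, defence, lipid hormone and signalling functions. GLT2, an NADH-dependent glutamate synthase, read 183, 179 and 139 in T65 and 6926, 6776 and 7470 in gid2-1, a 42.5-fold rise (log2 5.41 ± 0.09, adjusted p = 9.1e-15). BURP16, of the plant BURP-domain family, read 143, 153 and 93.6 in T65 and 4654, 4900 and 4449 in gid2-1, and HSFC1B, a class C heat-shock factor, 146, 169 and 161 in T65 and 2980, 3453 and 2901 in gid2-1. Each of these was low on all T65 arrays and high on all gid2-1 arrays. BBD1, a nuclease linked to basal defence, was already well measured in T65, at 556, 475 and 548, and reached 8664, 9795 and 8048 in gid2-1 (log2 4.07 ± 0.16, adjusted p = 3.6e-11). Adh2, an alcohol dehydrogenase of fermentation, rose from 242 ± 25.2 to 2035 ± 299 (log2 3.06 ± 0.11, adjusted p = 1.1e-11). Also among the 20 largest rises were the CBL-interacting kinase CIPK14 (log2 2.69 ± 0.08), the SnRK2 kinase SAPK9 (2.44 ± 0.11), the calmodulin-like CML5 (2.33 ± 0.18), the homeobox gene WOX6 (2.45 ± 0.32), the germin-like GLP2 (2.25 ± 0.10), the beta-glucosidase BGLU3 (2.51 ± 0.12), the transporter ABCG48 (2.18 ± 0.12) and SMR1 (2.21 ± 0.06).

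**Figure D1:**
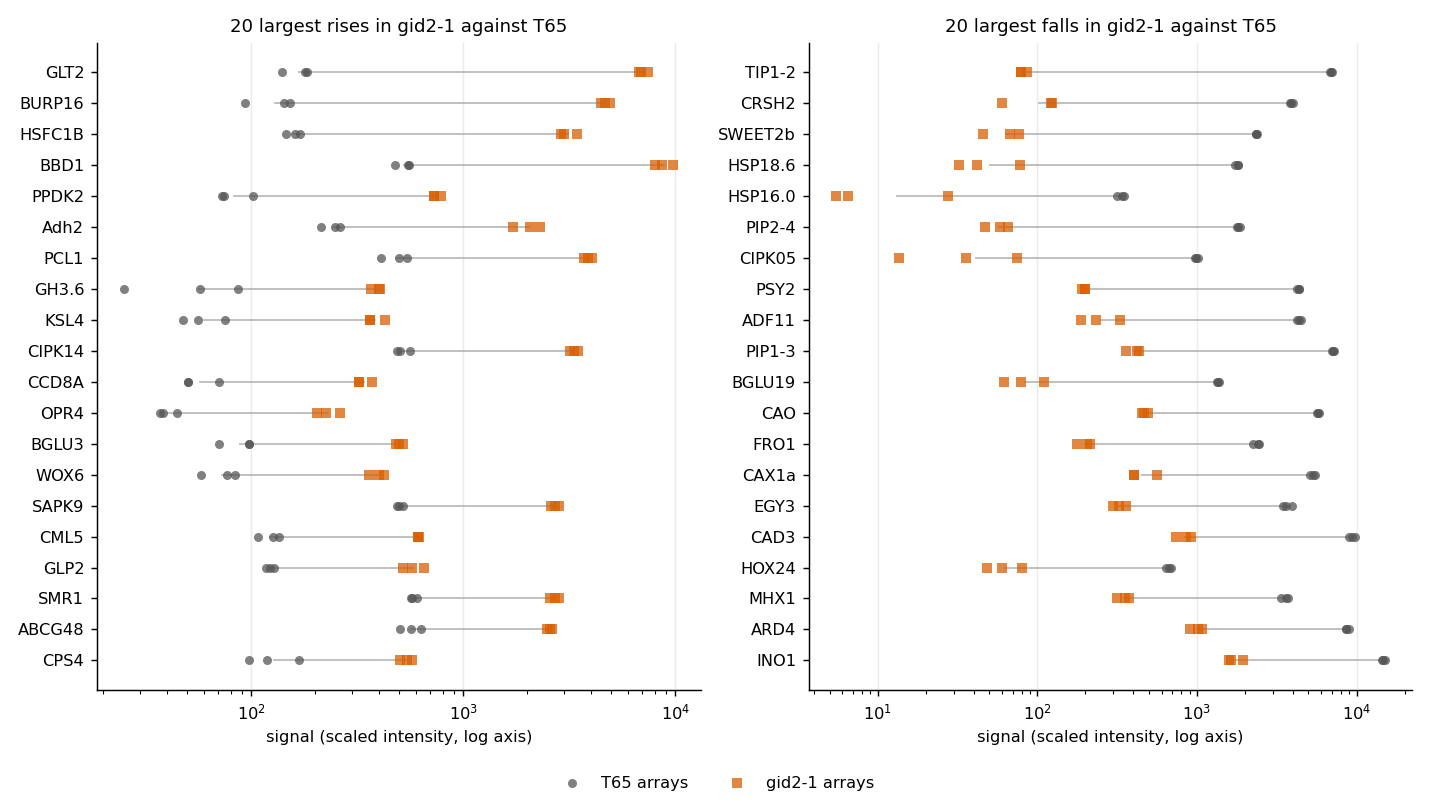
Signal per array (log axis) of the 20 largest rises and the 20 largest falls in gid2-1 among named genes at or above the median signal. Circles are the 3 T65 arrays, squares the 3 gid2-1 arrays, and a line joins the line means. Within each gene the arrays of both lines are apart, from GLT2 (means 167 and 7057) to CPS4 (128 and 538) on the left and from TIP1-2 (6886 and 81.2) to INO1 (14710 and 1722) on the right; the rule of choice asked for no overlap.

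The largest falls took in genes of plastid signalling, sugar and ion transport, the cytoskeleton and wall enzymes. CRSH2, a plastid enzyme of the calcium-activated RelA/SpoT type that makes the alarmone ppGpp, read 4024, 3904 and 3842 in T65 and 124, 60.3 and 122 in gid2-1, a 40.4-fold fall (log2 -5.34 ± 0.24, adjusted p = 1.7e-10). The sugar transporter gene SWEET2b fell from 2365 ± 27 to 63.5 ± 15.9 (log2 -5.25 ± 0.16, adjusted p = 4.2e-12), and the kinase gene CIPK05 from 993 ± 18.7 to 41.4 ± 30.9 with 1 of 3 gid2-1 arrays at or below the reporter level. ADF11, an actin-depolymerizing factor, read 4390, 4515 and 4253 in T65 and 328, 234 and 187 in gid2-1 (log2 -4.17 ± 0.14, adjusted p = 9.6e-12). For CRSH2, SWEET2b and ADF11 no gid2-1 array came near any T65 array, but the rule of choice had asked for no overlap. INO1, the inositol phosphate synthase, read 14658, 14394 and 15077 in T65 and 1588, 1640 and 1939 in gid2-1 (log2 -3.10 ± 0.07, adjusted p = 2.4e-13). ARD4, an acireductone dioxygenase of the methionine salvage cycle, fell from 8717 ± 166 to 1004 ± 88 (log2 -3.12 ± 0.06, adjusted p = 4.2e-14). CAD3, of the cinnamyl alcohol dehydrogenase family, fell from 9385 ± 350 to 837 ± 90.8 (log2 -3.49 ± 0.10, adjusted p = 1.6e-12). Metal and cation genes in the same set were FRO1, a ferric-chelate reductase (log2 -3.58 ± 0.08), CAX1a, a vacuolar cation/proton exchanger (-3.56 ± 0.11), and MHX1, a magnesium/proton exchanger (-3.35 ± 0.08). HOX24, of the HD-Zip family, fell (log2 -3.44 ± 0.15), as did EGY3 (log2 -3.49 ± 0.10) and BGLU19 (log2 -4.06 ± 0.16).

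**Figure D2:**
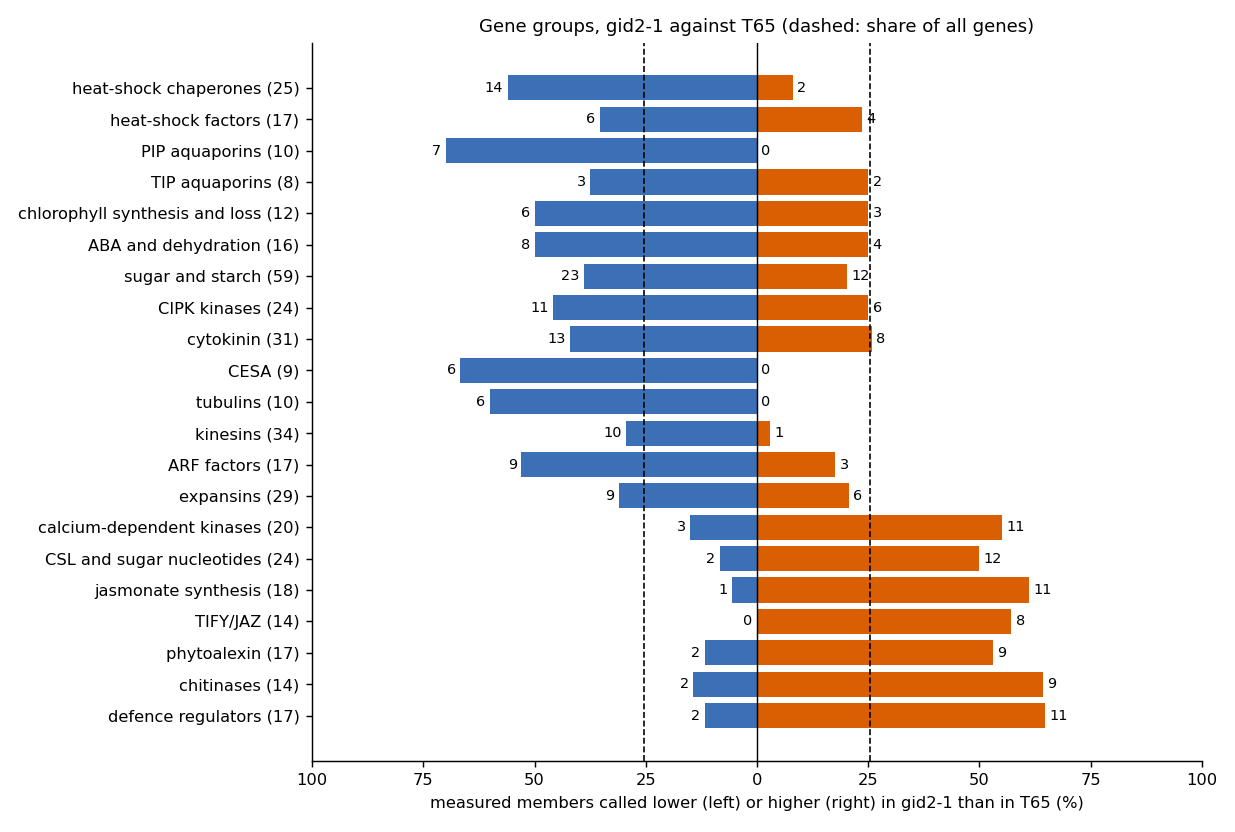
Share of the measured members of 21 gene groups that were called lower (blue, left) or higher (orange, right) in gid2-1 than in T65, with the number of members in brackets, the number called at each bar, and the shares of all genes (25.3% lower and 25.4% higher) as dashed lines. Heat-shock chaperones, PIP aquaporins, CESA genes and tubulins reach past the dashed line on the left and jasmonate synthesis, TIFY/JAZ, chitinase and defence genes on the right.

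Aquaporins, the channels for water and small solutes in the plasma membrane (PIP) and the vacuolar membrane (TIP), were mostly lower: of 25 measured genes 13 fell and 3 rose, with a median log2 change of -0.49. Among the 10 PIP genes 7 fell and 0 rose. PIP2-4 read 1774, 1810 and 1872 in T65 and 65.9, 47.3 and 58.5 in gid2-1 (log2 -5.0 ± 0.12, adjusted p = 4.4e-13). PIP2-2 read 14699, 14436 and 15150 in T65 and 1942, 2097 and 2066 in gid2-1 (log2 -2.86 ± 0.05, adjusted p = 2e-14). PIP1-3 fell (log2 -4.14 ± 0.08), as did PIP2-5 (log2 -2.87 ± 0.26). Other PIP genes moved far less, with log2 changes of -0.56 ± 0.09 for PIP1-1, -0.51 ± 0.08 for PIP2-1 and -0.37 ± 0.06 for PIP1-2, all called. PIP2-6 and PIP2-7 were not called, at 9190 ± 491 and 9616 ± 321 in gid2-1 against 9946 ± 236 and 9649 ± 93.1 in T65.

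Within the TIP genes the spread was wider still. TIP1-2 read 6777, 6905 and 6976 in T65 and 85.7, 78.8 and 79.2 in gid2-1, whereas TIP1-1 read 16810 ± 794 and 17573 ± 3208 and was not called (adjusted p = 0.85). TIP2-1 fell (log2 -1.48 ± 0.18), as did TIP4-2 (log2 -0.64 ± 0.14), and TIP4-1 rose by 0.49 ± 0.07. The rise of TIP2-2, 0.31 ± 0.06, was lost under 2 settings. Of the NIP genes, which carry silicon and other metalloids, NIP2-1, the silicon influx channel also known as Lsi1, rose from 562, 536 and 535 to 1733, 1626 and 1570 (log2 1.59 ± 0.07, adjusted p = 1.3e-10). Its shoot relative NIP2-2, also known as Lsi6, fell from 7174, 6525 and 6358 to 2258, 2099 and 2015 (log2 -1.65 ± 0.07, adjusted p = 7.6e-11). The SIP genes SIP1-1 and SIP2-1 fell (log2 -0.47 ± 0.08 and -0.60 ± 0.14).

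**Figure D3:**
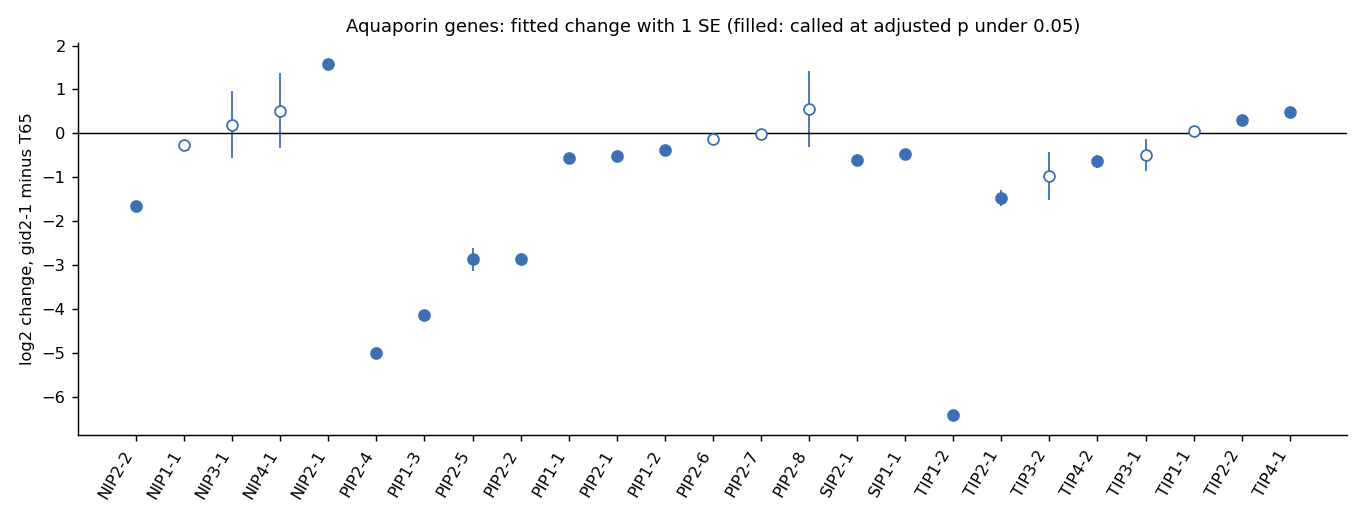
Fitted log2 change of each of the 25 measured aquaporin genes in gid2-1 against T65, with 1 SE as a vertical bar (mostly smaller than the symbol), filled where called. PIP2-4, PIP1-3, PIP2-5, PIP2-2 and TIP1-2 lie below -2, and NIP2-1 is the highest called gene at 1.59.

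Heat-shock protein genes, which encode chaperones that hold or refold damaged proteins, were lower in gid2-1 in most called cases. Of 25 measured chaperone genes 14 fell and 2 rose, with a median log2 change of -0.88. HSP24.1 read 687, 667 and 663 in T65 and 67.8, 94.1 and 101 in gid2-1 (log2 -2.96 ± 0.11, adjusted p = 2.9e-11). HSP81-1, a cytosolic HSP90, read 12592, 13077 and 12770 in T65 and 3137, 3284 and 3532 in gid2-1 (log2 -1.95 ± 0.06, adjusted p = 6.8e-12). HSP16.0, at 336 ± 16.5 in T65, was below the reporter level on all 3 gid2-1 arrays, a fall of at least 8.54-fold with each dim array at its reporter level (adjusted p = 2.7e-07). HSP18.6 fell from 1784 ± 50.4 to 50.9 ± 24, with 1 of 3 gid2-1 arrays at or below the reporter level. Of the 17 heat-shock factor genes, which encode the regulators of this response, 6 fell and 4 rose. HSFB2A read 2244, 2155 and 2210 in T65 and 477, 400 and 498 in gid2-1 (log2 -2.27 ± 0.07, adjusted p = 6.4e-12), and HSFB2C fell (log2 -2.10 ± 0.10), against the large rise of HSFC1B.

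Jasmonate genes were higher. Jasmonates are wound and defence hormones made from linolenic acid by lipoxygenase (LOX), allene oxide synthase (AOS), allene oxide cyclase and oxophytodienoate reductase (OPR). Of 18 measured synthesis genes 11 rose and 1 fell, with a median log2 change of 1.04. LOX8 read 3045, 2819 and 2782 in T65 and 11941, 11691 and 10858 in gid2-1 (log2 2.00 ± 0.09, adjusted p = 2.2e-10), and LOX5 4716, 4622 and 4761 in T65 and 12878, 13215 and 11326 in gid2-1 (log2 1.40 ± 0.06, adjusted p = 1.5e-10). AOS2 read 2331, 2434 and 2226 in T65 and 8164, 7710 and 7462 in gid2-1 (log2 1.74 ± 0.06, adjusted p = 1.9e-11). The arrays of both lines were apart for each of these. OPR1 rose from 1142 ± 41.6 to 2500 ± 144 (log2 1.13 ± 0.06), and OPR4, above the reporter level on 2 of 3 T65 arrays, from 40 ± 4.02 to 230 ± 29.3 (2.52 ± 0.20). LOX9 rose by 2.02 ± 0.06 and LOX1.1 by 1.70 ± 0.10. Of the 14 TIFY/JAZ genes, whose proteins repress jasmonate responses and are themselves induced by them, 8 rose and 0 fell, with a median of 0.35; centred on the spiked controls, 3 rose. Over the whole jasmonate list of 36 genes, 20 rose and 2 fell.

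Diterpenoid phytoalexins, antimicrobial compounds that share an early precursor with gibberellins, had 9 of 17 measured genes higher and 2 lower (median 0.61). Several genes of momilactone synthesis rose. KSL4, a diterpene synthase of that pathway, read 56.2, 47.5 and 75.4 in T65 and 365, 362 and 428 in gid2-1 (log2 2.71 ± 0.24, adjusted p = 3.3e-07), and CPS4, which supplies its substrate, 97.8, 168 and 118 in T65 and 501, 542 and 572 in gid2-1 (log2 2.11 ± 0.22, adjusted p = 2.5e-06). The neighbouring P450 genes of that pathway, CYP99A2 and CYP99A3, rose from 267 ± 51 to 797 ± 78.7 and from 257 ± 16.9 to 542 ± 28 (adjusted p = 6.5e-08 and 6.5e-07). CYP71Z6, a P450 of the oryzalide route, went down, from 516, 524 and 504 to 127, 158 and 132 (log2 -1.89 ± 0.14, adjusted p = 6.4e-08), as did CYP701A8 (-0.75 ± 0.07).

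Of 14 chitinase and glucanase genes, whose enzymes attack fungal walls, 9 rose and 2 fell (median 0.75). Cht6 read 1077, 1045 and 1048 in T65 and 3289, 2966 and 2940 in gid2-1 (log2 1.53 ± 0.06, adjusted p = 4.3e-11). Cht11 rose by 0.96 ± 0.05, Cht3 by 0.77 ± 0.08 and Cht-1 by 0.73 ± 0.09, while Rcb4 fell (log2 -0.97 ± 0.07), as did Cht10 (log2 -0.68 ± 0.08). Defence regulators were higher in 11 of 17 cases and lower in 2 (median 0.48). All 3 NPR1-type genes, which carry salicylic acid signals, rose, with NH1 from 1091 ± 122 to 2868 ± 190 (log2 1.40 ± 0.10), NH3 from 2230 ± 32.3 to 5245 ± 134 (1.23 ± 0.06) and NH2 from 4562 ± 30 to 7198 ± 223 (0.66 ± 0.05). WRKY62 read 750, 708 and 734 in T65 and 1814, 1926 and 1809 in gid2-1 (log2 1.34 ± 0.06, adjusted p = 1.2e-10), and WRKY24 rose by 0.92 ± 0.07. CEBIP, the receptor that binds chitin fragments at the cell surface, fell from 1269, 1139 and 1338 to 602, 528 and 533 (log2 -1.17 ± 0.08, adjusted p = 1.6e-08). MAPK5, a mitogen-activated kinase of stress and defence signalling, rose from 6275 ± 317 to 12347 ± 547 (log2 0.98 ± 0.06, adjusted p = 1.5e-08).

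Among 16 genes of abscisic acid and dehydration response 8 fell and 4 rose (median -0.68). The dehydrin genes RAB21 and RAB16B, which mark water deficit, fell from 731 ± 30.1 to 195 ± 38 and from 371 ± 42.8 to 46 ± 19.6 (log2 -1.92 ± 0.13 and -3.08 ± 0.26), and RAB16B lay above the reporter level on only 1 of 3 gid2-1 arrays. LEA3-1, a late embryogenesis abundant protein gene, read 657, 613 and 756 in T65 and 223, 178 and 202 in gid2-1 (log2 -1.75 ± 0.12, adjusted p = 2.3e-08). ABA8OX1, whose enzyme breaks down abscisic acid, rose from 5540, 5233 and 5257 to 15954, 14305 and 13392 (log2 1.44 ± 0.07, adjusted p = 3.9e-10). The PP2C phosphatases, some of which hold SnRK2 kinases inactive until abscisic acid binds its receptors, were split, with 21 of 55 higher and 18 lower. PP2C68 fell from 2536 ± 44.6 to 461 ± 50.7 (log2 -2.47 ± 0.08, adjusted p = 6e-12), as did PP2C09 (log2 -1.39 ± 0.06), and PP2C64 and PP2C29 rose by 1.09 ± 0.06 and 1.03 ± 0.05. With spiked-control centring the split was 11 higher and 25 lower. SAPK2 rose from 4902 ± 201 to 10067 ± 290 (log2 1.04 ± 0.05).

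Calcium-linked kinases split by family. Of 20 calcium-dependent protein kinase genes 11 rose and 3 fell (median 0.50), with CPK24 at 1706, 1723 and 1743 in T65 and 3815, 4139 and 3680 in gid2-1 (log2 1.17 ± 0.06, adjusted p = 1.4e-09). Of 24 CIPK genes, which work with calcineurin B-like sensors, 11 fell and 6 rose (median -0.38), with CIPK01 at 4621, 4737 and 4956 in T65 and 2339, 1994 and 2074 in gid2-1 (log2 -1.16 ± 0.06, adjusted p = 1.4e-09) and CIPK14 among the largest rises. CAM61 fell (log2 -1.10 ± 0.06).

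Genes of cellulose synthesis were lower. CESA genes encode the catalytic subunits of cellulose synthase, CESA4, CESA7 and CESA9 those of secondary walls and CESA1, CESA3 and CESA8 those of primary walls. Of 9 measured CESA genes 6 fell and 0 rose (median -0.72). CESA7 read 4459, 4328 and 3814 in T65 and 1421, 1092 and 1209 in gid2-1 (log2 -1.76 ± 0.21, adjusted p = 8.3e-06), and CESA4 4093, 4166 and 4050 in T65 and 1815, 1621 and 1724 in gid2-1 (log2 -1.26 ± 0.07, adjusted p = 3.3e-09). The primary wall gene CESA8 read 8726, 8279 and 8222 in T65 and 4713, 4889 and 4326 in gid2-1 (log2 -0.86 ± 0.06), and CESA1 fell from 11127 ± 66.3 to 6761 ± 420 (log2 -0.72 ± 0.06). These 4 genes were lower on every gid2-1 array than on any T65 array. BC1, a COBRA-like protein of sclerenchyma walls, fell from 738 ± 57.9 to 328 ± 13.1 (log2 -1.17 ± 0.14), while its relative BC1L9 rose from 4310 ± 178 to 11126 ± 1060 (1.36 ± 0.07). LAC4, a laccase in the same fibre list, fell from 1390 ± 64 to 206 ± 39 (log2 -2.77 ± 0.52, adjusted p = 0.0007). The summed signal of the 5 vascular and fibre markers, which include CESA4, CESA7 and CESA9, was 11421 to 12235 on the T65 arrays and 3987 to 4619 on those of gid2-1, and all 5 fell. How far the amount of such tissue accounts for this was not tested.

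Other wall genes did not all follow. Of 24 cellulose synthase-like and sugar nucleotide genes, which make hemicelluloses and their precursors, 12 rose and 2 fell (median 0.23); with spiked-control centring 6 rose and 4 fell. CSLD2 read 906, 875 and 919 in T65 and 1864, 1922 and 1821 in gid2-1 (log2 1.05 ± 0.06, adjusted p = 1.9e-09), and UGD5, a UDP-glucose dehydrogenase, fell (log2 -0.80 ± 0.09). Expansins, which loosen walls during growth, were divided, with 9 of 29 lower and 6 higher (median -0.29), shares near those of all genes. EXPA2 read 2064, 2035 and 1892 in T65 and 470, 549 and 525 in gid2-1 (log2 -1.96 ± 0.09, adjusted p = 2.9e-10), EXPB2 1121, 1272 and 1085 in T65 and 234, 281 and 192 in gid2-1 (log2 -2.31 ± 0.24, adjusted p = 2.5e-06), and EXPB11 fell (log2 -1.45 ± 0.11). On the other side EXPB6 rose from 382 ± 20 to 897 ± 20.7 (log2 1.23 ± 0.09), and the expansin-like EXLA2 and EXLA1 by 1.25 ± 0.09 and 0.57 ± 0.06. In lignin synthesis 10 of 28 genes fell and 6 rose. CAD2 read 9516, 9718 and 10220 in T65 and 4012, 4142 and 3698 in gid2-1 (log2 -1.31 ± 0.06, adjusted p = 4.3e-10) and 4CL3 3704, 3687 and 3502 in T65 and 1443, 1437 and 1305 in gid2-1 (log2 -1.38 ± 0.06, adjusted p = 1.3e-10), while 4CL5 rose by 0.83 ± 0.05, CAD8C by 1.83 ± 0.10 and the laccase LAC24 by 1.37 ± 0.06. PMEI8, a pectin methylesterase inhibitor, fell from 1493 ± 64.3 to 257 ± 56.9 (log2 -2.56 ± 0.14), and the beta-glucosidases BGLU31 and BGLU16 (log2 -2.57 ± 0.05 and -2.57 ± 0.07).

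In the cytoskeleton, 6 of 10 tubulin genes fell and 0 rose (median -0.39), and of 34 kinesin genes 10 fell and 1 rose (median -0.21); with spiked-control centring 22 kinesin genes fell. KIN13B read 3287, 3109 and 3077 in T65 and 1685, 1603 and 1695 in gid2-1 (log2 -0.93 ± 0.06, adjusted p = 6.4e-09), KIN14L 1880, 1860 and 1802 in T65 and 785, 722 and 841 in gid2-1 (log2 -1.24 ± 0.08, adjusted p = 1.2e-08). Kinesins are a family of motor proteins that act on microtubules. With the signals as deposited, the share of kinesin genes that fell was close to that of all genes, while the share that rose was below it. The 22 of 34 that fell with spiked-control centring stand beside 36.2% of all genes on that scale. ADF7 fell (log2 -1.11 ± 0.10) and ADF5 rose by 1.38 ± 0.06. Of 11 markers of dividing cells 4 fell and 1 rose (median -0.23), 7 and 0 with spiked-control centring, and their summed signal was 24360 to 25547 in T65 and 22598 to 26694 in gid2-1. CYCB1-1, a mitotic cyclin, read 1240, 1241 and 1286 in T65 and 862, 987 and 968 in gid2-1 (log2 -0.42 ± 0.08, adjusted p = 0.00068), and PCNA, the replication clamp, 907, 881 and 847 in T65 and 759, 826 and 817 in gid2-1 (not called, adjusted p = 0.14). Of 38 cell-cycle genes 10 rose and 10 fell, shares near those of all genes (7 and 14 with spiked-control centring), with CDKG-1 from 2570 ± 69.5 to 4882 ± 131 (log2 0.93 ± 0.05). Of 6 meristem markers 2 rose, 1 fell and 3 were not called (median -0.07), with 2 and 2 under spiked-control centring. OSH1, a KNOX homeobox gene of the shoot apex, was not called, at 1156, 1279 and 1206 in T65 and 1032, 1053 and 1233 in gid2-1. The rises were those of OSH71 and OSH6, by 0.58 ± 0.08 and 0.75 ± 0.13.

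Other hormone lists gave mixed counts. Of 17 auxin response factor genes 9 fell and 3 rose (median -0.22), and of 26 Aux/IAA genes 7 fell and 4 rose. IAA6 read 2054, 1983 and 2086 in T65 and 4353, 4393 and 4472 in gid2-1 (log2 1.11 ± 0.05, adjusted p = 1.9e-10), and the auxin-conjugating GH3-8 rose from 943 ± 67.6 to 2920 ± 815 while GH3.2 fell from 1252 ± 8.35 to 592 ± 41.5 (log2 1.60 ± 0.15 and -1.08 ± 0.08). In the cytokinin list 13 of 31 genes fell and 8 rose (median -0.36). OHK3, a cytokinin receptor kinase, read 3374, 3209 and 3446 in T65 and 1406, 1282 and 1495 in gid2-1 (log2 -1.26 ± 0.08, adjusted p = 4.9e-09). CKX11, a cytokinin oxidase, fell from 1193 ± 69.4 to 334 ± 97.9, and CKX5 rose from 337 ± 31.8 to 760 ± 14.7 (log2 -1.88 ± 0.18 and 1.18 ± 0.11). In ethylene, 6 of 11 genes rose and 1 fell, 3 and 1 with spiked-control centring. ACS2, a synthase of the ethylene precursor, read 314, 361 and 333 in T65 and 864, 697 and 752 in gid2-1 (log2 1.19 ± 0.09, adjusted p = 3.7e-08). Of 18 brassinosteroid genes 3 rose and 4 fell, with CYP85A1, a late synthesis enzyme, at 815 ± 15.1 and 439 ± 6.58 (log2 -0.89 ± 0.10). CCD8A, of the strigolactone synthesis family, rose from 70.7, 50.1 and 50.3 to 322, 321 and 373 (log2 2.59 ± 0.31, adjusted p = 1.1e-05).

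Nitrogen genes changed in both directions, 7 higher and 7 lower of 21 (6 and 8 with spiked-control centring). NIA1, a nitrate reductase, read 3884, 4091 and 3837 in T65 and 474, 407 and 502 in gid2-1 (log2 -3.10 ± 0.08, adjusted p = 5.9e-13), and the cytosolic glutamine synthetase GLN1-1 10914, 11200 and 11412 in T65 and 4784, 5450 and 4761 in gid2-1 (log2 -1.16 ± 0.07, adjusted p = 2.3e-09). AMT1-1, an ammonium transporter, fell (log2 -1.39 ± 0.06). Nitrate reductase and this glutamine synthetase were lower on every gid2-1 array, opposite to GLT2. GDH2, a glutamate dehydrogenase, rose from 2203, 2029 and 2092 to 9146, 7675 and 8128 (log2 1.98 ± 0.07, adjusted p = 2.3e-11). Among phosphate genes PHO1-2, which loads phosphate into the xylem, fell from 3454, 3744 and 3874 to 856, 891 and 823 (log2 -2.11 ± 0.07, adjusted p = 1e-11), the phosphate sensor gene SPX2 fell (log2 -1.46 ± 0.13), and the transporter gene PHT1-8 rose by 1.11 ± 0.11. Of the HAK potassium transporters HAK27 fell from 3397 ± 105 to 434 ± 32.6 and HAK1 rose from 1860 ± 101 to 5212 ± 229 (log2 -2.97 ± 0.07 and 1.49 ± 0.07). YSL13, of the yellow stripe-like metal transporters, read 1578, 1636 and 1700 in T65 and 5038, 5013 and 5013 in gid2-1 (log2 1.62 ± 0.05, adjusted p = 4e-12), and Nramp1 fell (log2 -1.91 ± 0.15).

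Of 59 sugar and starch genes 23 fell and 12 rose (median -0.22). SSII-2, a starch synthase, read 2490, 2606 and 2562 in T65 and 664, 803 and 620 in gid2-1 (log2 -1.88 ± 0.09), and SSS1, another, fell from 2580 ± 79.7 to 777 ± 53.8 (log2 -1.73 ± 0.08). The sucrose phosphate synthase gene SPS2 and the sucrose transporter gene SUT2 fell (log2 -1.56 ± 0.08 and -1.64 ± 0.09). SUS4, a sucrose synthase, which cleaves sucrose, rose from 868, 788 and 846 to 3306, 3271 and 3229 (log2 1.97 ± 0.07, adjusted p = 7.1e-12). Redox genes were even, 21 higher and 20 lower of 59. With spiked-control centring 7 were higher and 25 lower, beside 14.7% and 36.2% of all genes on that scale. Trx03, a thioredoxin, read 10065, 10012 and 10303 in T65 and 1375, 1526 and 1475 in gid2-1 (log2 -2.80 ± 0.06, adjusted p = 1.1e-13), GRXC7, a glutaredoxin, fell (log2 -1.78 ± 0.06), GRXC15 rose by 1.78 ± 0.07, and the catalase gene catA rose from 9310 ± 226 to 20060 ± 2591 (log2 1.10 ± 0.08).

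In the list of carotenoid and strigolactone genes 4 of 9 fell and 2 rose. PSY2, a phytoene synthase, which commits carbon to carotenoids, fell from 4335 ± 67.1 to 197 ± 5.1 (log2 -4.46 ± 0.06). PSY1, of the same step, read 3564, 3339 and 3344 in T65 and 1318, 1432 and 1443 in gid2-1 (log2 -1.29 ± 0.06), and ABA1, a zeaxanthin epoxidase, fell (log2 -0.92 ± 0.07). PDS, the desaturase that acts on phytoene next, rose by 0.28 ± 0.07 (adjusted p = 0.0052), a call lost under 3 settings. Of 12 chlorophyll genes 6 fell and 3 rose (median -0.56). CAO, which makes chlorophyll b, read 5627, 5841 and 5758 in T65 and 469, 452 and 496 in gid2-1 (log2 -3.61 ± 0.06, adjusted p = 1.6e-14). PORA, a protochlorophyllide reductase, read 4617, 4834 and 4652 in T65 and 1297, 1231 and 1288 in gid2-1 (log2 -1.89 ± 0.07, adjusted p = 1.8e-11). LYL1, a geranylgeranyl reductase, fell (log2 -1.54 ± 0.06) as did CHLH, a subunit of magnesium chelatase (log2 -1.15 ± 0.06). GSA, of the early steps, rose by 0.61 ± 0.06.

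The mutant was next set against gid1-3, the line whose defect lies 1 step earlier, in a test that uses no T65 array. In this contrast gid2-1 had the higher level in 6864 probe sets (12.0%) and the lower in 5182 (9.06%), 21.1% in all. Of genes, 40.9% were called, 23.4% higher and 17.5% lower, with a median log2 difference of 0.05. With arrays centred on their medians it was -0.07, and 3975 probe sets were higher against 4943 lower. Of genes, 13.4% were higher and 16.2% lower on that scale. For scale, 56.4% of genes were called in gid1-3 against T65. CESA, expansin, kinesin, tubulin and auxin response factor genes were higher in gid2-1 than in gid1-3 in nearly all called cases. Of 9 CESA genes 7 were higher and 0 lower (median 0.89), of 29 expansin genes 17 and 1 (0.80), of 34 kinesin genes 24 and 1 (0.61), of 10 tubulin genes 7 and 0 (0.38) and of 17 auxin response factor genes 13 and 0 (0.54). With arrays centred on their medians the counts were 7 and 0, 14 and 1, 17 and 1, 4 and 0, and 10 and 1 in the same order. Other wall lists were less one-sided, with 16 of 38 wall remodelling genes higher and 11 lower (9 and 12 with median centring), 10 of 28 lignin genes higher and 3 lower, and 9 of 24 cellulose synthase-like and sugar nucleotide genes higher and 1 lower. CESA4 read 452, 385 and 466 on the gid1-3 arrays, against 1815, 1621 and 1724 in gid2-1 (log2 difference 1.99 ± 0.07, adjusted p = 4.2e-11). EXPA2 read 229, 224 and 187 in gid1-3 (log2 difference 1.27 ± 0.09, adjusted p = 6.3e-08). KIN14H was at 267 ± 24.7 in gid1-3, 957 ± 7.03 in gid2-1 and 1807 ± 68.3 in T65. The levels of these 3 genes in gid2-1 thus lay between those of the parent and of gid1-3.

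The 5 vascular and fibre markers were all higher in gid2-1 than in gid1-3, where their sum was 1027 to 1280. Of 6 meristem markers 5 were higher (median 1.05), among them OSH1 (436 ± 14.6 in gid1-3, log2 difference 1.34 ± 0.09, adjusted p = 2.9e-08). Among markers of dividing cells 7 of 11 were higher and 0 lower, 4 of them with arrays centred on their medians, and CYCB1-1 was at 257 ± 24.2 in gid1-3 (log2 difference 1.87 ± 0.08, adjusted p = 1.8e-10). IAA13 was at 770 ± 17.9 in gid1-3 and 3081 ± 62.5 in gid2-1 (log2 difference 2.00 ± 0.05, adjusted p = 1.4e-12), beside 4615 ± 55.5 in T65. The part of tissue makeup in these differences was not tested.

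Other groups were lower in gid2-1 than in gid1-3. Of 25 heat-shock chaperone genes 12 were lower and 1 higher (median -0.40), and of 12 chlorophyll genes 10 were lower and 1 higher (-0.64). Of 14 thioredoxin genes 11 were lower and 0 higher (-0.43). Against T65, 9 of these 14 were higher and 3 lower in gid1-3 (median 0.43), and 4 higher and 6 lower in gid2-1 (median -0.08). HSP81-1 was at 12430 ± 552 in gid1-3 and 12813 ± 246 in T65, against 3318 ± 199 in gid2-1 (log2 difference -1.91 ± 0.06, adjusted p = 1.7e-11). Aquaporins were divided, 10 of 25 lower and 7 higher. TIP1-2 was at 915 ± 49 in gid1-3 (log2 difference -3.49 ± 0.06, adjusted p = 1.2e-13), and NIP2-2, at 862 ± 62.2 there, was higher in gid2-1 (1.30 ± 0.07, adjusted p = 2.2e-09). Of 18 jasmonate synthesis genes 8 were higher and 1 lower (median 0.31), 5 and 1 with arrays centred on their medians. AOS2 and LOX1.1 were higher (log2 difference 0.63 ± 0.06 and 0.78 ± 0.10) and OPR4 was lower (-1.63 ± 0.20). For LOX8, LOX9 and LOX5 the difference was not called, at -0.14 ± 0.09, 0.03 ± 0.06 and 0.12 ± 0.06. Nor was it for the phytoalexin genes KSL4 and CPS4, at -0.26 ± 0.24 and -0.24 ± 0.22. GLT2 was higher in gid2-1 than in gid1-3, at 7057 ± 365 against 1307 ± 43.4 (log2 difference 2.43 ± 0.09, adjusted p = 5.3e-11), and BURP16 was lower, at 4667 ± 226 against 12721 ± 577 (-1.45 ± 0.14, adjusted p = 1.6e-06).

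**Figure D4:**
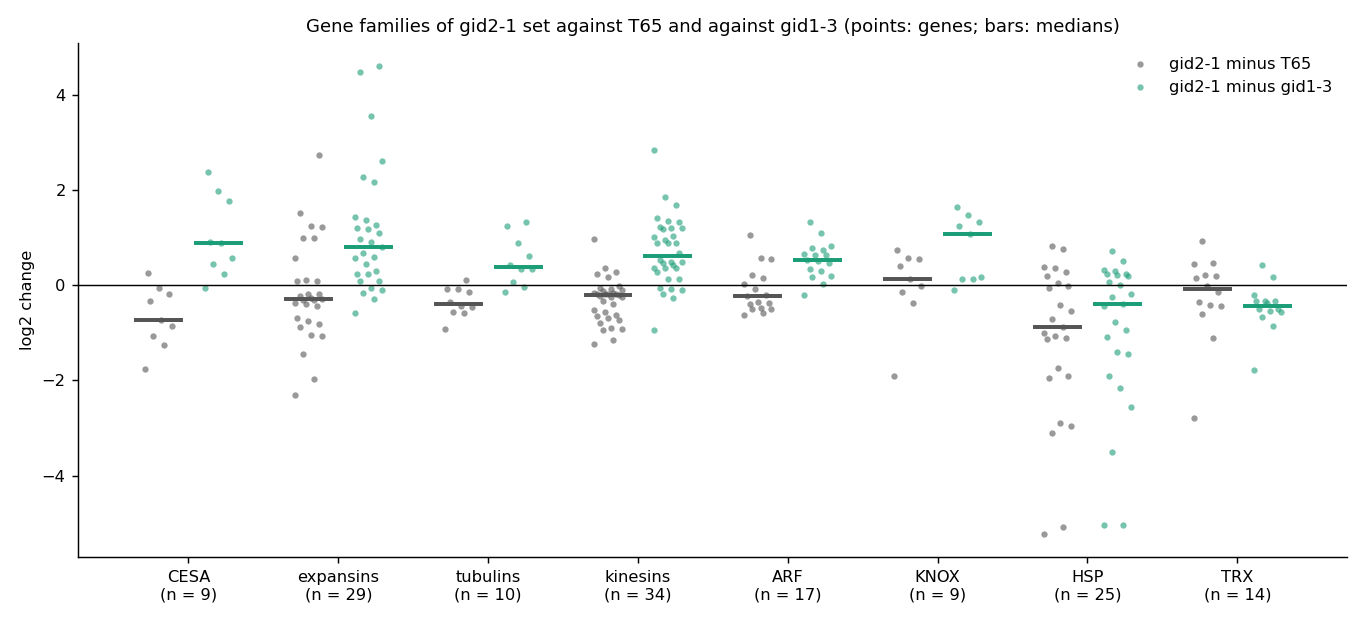
Log2 change of each gene of 8 families in gid2-1 against T65 (grey) and against gid1-3 (green), with medians as bars and n the number of genes; both comparisons share the gid2-1 arrays. CESA, expansin, tubulin, kinesin and auxin response factor (ARF) medians lie below 0 against T65 and above 0 against gid1-3. They are -0.72 and 0.89 for CESA and -0.22 and 0.54 for ARF. Medians of heat-shock proteins (HSP) and thioredoxins (TRX) lie below 0 in both, that of TRX against T65 at only -0.08.

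Transcripts tied to the circadian clock and to light are kept apart here, since the hour of harvest is not given and many of them cycle over the day. Line and time of harvest cannot be told apart. In plants LHY is a morning component of the clock, the PRR genes follow in turn through the day with PRR1 last, and GI and PCL1, the latter the rice counterpart of LUX, belong to the afternoon and evening. LHY read 13708, 13058 and 14119 in T65 and 2978, 3069 and 2934 in gid2-1 (log2 -2.19 ± 0.06, adjusted p = 1.7e-12). PRR1 read 1443, 1321 and 1411 in T65 and 3719, 3548 and 3230 in gid2-1 (log2 1.33 ± 0.08, adjusted p = 5.7e-09) and PCL1 495, 540 and 408 in T65 and 4050, 3706 and 3864 in gid2-1 (log2 3.02 ± 0.41, adjusted p = 3.8e-05). The morning gene was lower and the evening genes higher on every gid2-1 array than on any T65 array. GI read 9672, 8944 and 9526 in T65 and 14505, 16645 and 12724 in gid2-1 (log2 0.63 ± 0.08, adjusted p = 1.5e-05). PRR95 fell (log2 -0.41 ± 0.09), PRR37 rose by 0.36 ± 0.07, a call lost under 2 settings, and PRR73 was not called (0.23 ± 0.08, adjusted p = 0.054).

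The levels of gid2-1 lay outside those of the other lines for LHY, PRR1, GI and PCL1. LHY was at 13499 ± 717 in gid1-3 and 15467 ± 1019 in slr1, PRR1 at 931 ± 51.1 and 365 ± 35.8, GI at 7167 ± 224 and 6938 ± 102, and PCL1 at 118 ± 3.08 and 11.9 ± 10.9. Against gid1-3, 5 of 7 clock genes were higher in gid2-1 and 1 was lower, with log2 differences of 5.04 ± 0.41 for PCL1, 1.91 ± 0.08 for PRR1 and -2.17 ± 0.06 for LHY (adjusted p = 2.6e-07, 2.1e-10 and 3.2e-12). Flowering-time genes outside the clock moved less: SE5 fell (log2 -0.35 ± 0.06), Ehd4 and Hd16 rose by 0.37 ± 0.07 and 0.52 ± 0.11, calls lost under 1 setting each, MADS50 fell (log2 -0.40 ± 0.09) and MADS56 was not called. Photoreceptor genes were mostly higher, 4 of 6 with 1 lower. PHOT1A, a blue-light receptor of phototropism, read 1295, 1433 and 1296 in T65 and 4505, 4502 and 4820 in gid2-1 (log2 1.78 ± 0.06, adjusted p = 1e-11), and the phytochrome genes PHYB, PHYC and PHYA rose by 0.89 ± 0.05, 0.65 ± 0.06 and 0.95 ± 0.16. PHOT2 fell (log2 -0.44 ± 0.10).

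**Figure D5:**
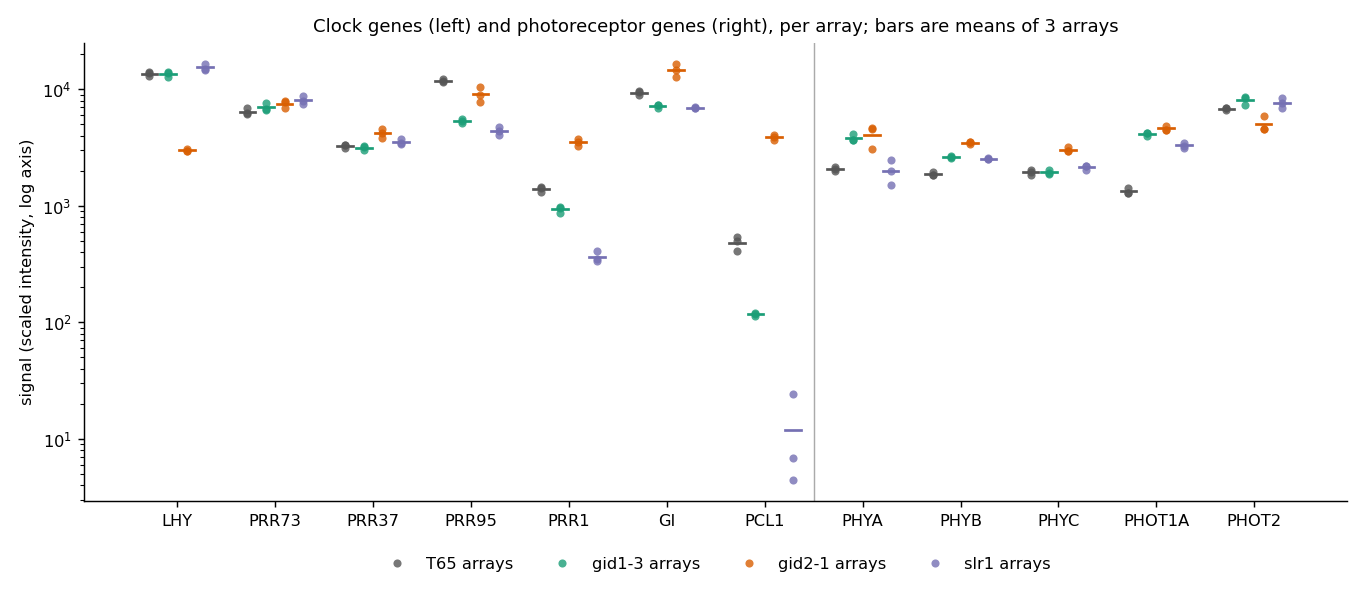
Signal per array (log axis) of 7 clock genes and 5 photoreceptor genes in the 4 lines, with bars at the means of 3 arrays. In gid2-1 LHY stands at 2994 where the other lines lie between 13499 and 15467, and PRR1 (3499), GI (14625) and PCL1 (3873) stand above the other lines.

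Of 15 photosynthesis genes 6 fell and 3 rose (median -0.16). PSAG, a photosystem I subunit, read 5172, 4536 and 5130 in T65 and 858, 747 and 838 in gid2-1 (log2 -2.60 ± 0.07, adjusted p = 1.6e-12), and PSB28, of photosystem II, 3010, 3097 and 3050 in T65 and 713, 724 and 707 in gid2-1 (log2 -2.09 ± 0.07, adjusted p = 6e-12). Other genes of the same apparatus were not called: CAB2R, an antenna protein, was at 23918 ± 916 and 21691 ± 1602, PSAH at 9995 ± 97.9 and 9564 ± 802, and RBCS-C, the small subunit of Rubisco, at 19725 ± 1075 and 22319 ± 4847. RCA, which activates Rubisco, fell from 23412 ± 697 to 15532 ± 2069 (log2 -0.60 ± 0.09). PPDK2, a pyruvate phosphate dikinase, rose from 74.5, 72.5 and 102 to 782, 730 and 724 (log2 3.18 ± 0.13, adjusted p = 5.3e-11). Without the clock, flowering, photoreceptor and photosynthesis lists, 56.6% of 2417 named genes were called, against 56.6% of 2457 with them. The 40 genes left out are too few to move that share much, so it says nothing on the part of harvest time. Aquaporin, heat-shock and chlorophyll genes described above also cycle over the day in leaves of many plants, and the part of harvest time in their changes was not tested.

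The labelled tissue was checked with marker lists. Of 10 green leaf markers 1, RBCS-A, lay below the reporter level on all T65 arrays. Their summed signal was 119098 to 124819 in T65 and 83236 to 102867 in gid2-1, and 6 fell while 0 rose. Of 10 root markers 3 rose and 1 fell (median 0.11), 2 and 1 with spiked-control centring, and their sum was 4094 to 4442 in T65 and 6310 to 6837 in gid2-1. Among them NAAT1, of phytosiderophore synthesis, was at 3265 ± 191 and 4350 ± 310 and NIP2-1 rose as described above, whereas IRT1 and YSL15, iron uptake genes of the root, were at 89.3 ± 19.9 and 53.9 ± 12.5 in gid2-1 and not called. Of 9 seed markers 2 rose and 0 fell, 1 and 0 with spiked-control centring. They summed to 1912 to 1966 in T65 and 3188 to 3373 in gid2-1, of which GLB1 was 1142 ± 34.4 and 2385 ± 109. Of the 13 floral markers, 6 in T65 and 6 in gid2-1 lay below the reporter level on all arrays of the line, 5 of them in both lines. Of the 13, 4 rose and 0 fell. With spiked-control centring it was 2 and 0, and the floral sums were 832 to 1103 in T65 and 1219 to 1590 in gid2-1. The part of these tissues in the results was not tested.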

How the data were processed

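Probe-set signals on a linear intensity scale were taken as the authors deposited them in the series' value table. Per the labels, biotin-labelled cRNA was made from total RNA of shoots. The array software, normalization and genome build are not given in the sources used here. The values fit a scaling of each array to a mean of 500.1 after trimming 2% at each end. Of 57381 probe sets, 187 controls were left out. Signals below 1 were set to 1 and log2 was taken.

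limma 3.58.1 in R 4.3.3 was fitted over all 12 arrays with 1 mean per line and a variance trend, and p-values were adjusted over 57194 probe sets. The p-values and SE rest on the spread between labelled biological replicates within a line, pooled over all 4 lines and moderated by the trend. They do not measure the spread of the T65 or gid2-1 arrays alone. A 1-gene annotation was held by 22436 probe sets, 95 had several genes and 34663 none, and a gene was represented by its brightest probe set among 17905 genes, 2457 of them with a name. The annotation tables carried the names, and no coordinates or sequences were used.

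Genes named are GID1, GID2 and SLR1, the 20 largest rises and falls among named genes with no overlap between arrays and signal at or above the median, and up to 6 per list (49 function lists and 7 tissue lists), so that large changes are favoured. Members and lists were chosen with earlier results of these data known. Wrong synonym matches were removed, and KIN17 and MPK14, neither called, stayed in the kinesin and cytoskeleton lists through their symbols. Where a gene had more than 1 probe set, not all were called for AMT1-1, CAD8C, CHLH, CKX11, GID1, GSA, HSP18.6, LHY, LOX9, NIA1, PHO1-2, PIP2-1, PRR37, PSAG, PSY1, SSII-2, TIP4-1 and WOX6, and for PRR73 and RBCS-C another probe set was called. A suffix in the probe set's name marks it as able to bind related transcripts for ABCG37, ABCG44, BURP02, CAB2R, CAD2, CAD3, CAO, catA, CAX1a, CHLH, Cht3, CIPK14, CML5, CPS4, CYP701A6, ETR3, EXLA2, GAMYB, HAK1, HSP18.6, KIN13B, KIN14H, KS1, LEA3-1, LHY, LOX5, MADS50, MAPK5, mdr17, NIP2-2, OHK3, ONAC004, OPR1, PHOT1A, PHOT2, PHT1-8, PHYA, PHYB, PHYC, PIP2-1, PIP2-2, PIP2-7, PP2C09, PPDK2, PRR73, PRR95, PSY1, PSY2, RBCS-C, RCA, SAPK9, SIP1-1, SSII-2, SWEET2b, TIP1-1, TIP2-1, TIP2-2, TIP4-2, Trx03 and UGD5, so their values may include those.

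A gene below the 95th percentile of the blank reporter controls on all arrays of a line got a bound. Array numbers in the labels run by line, so order of processing and line cannot be told apart. Within-line coefficients of variation had a median of 6.23% in T65 and 10.2% in gid2-1, and the 3 arrays of a line limit the precision. In simulated data 200 of 57194 probe sets were changed, drawn from those at or above the median of T65. The fit recovered 35.8%, 77.6% and 92.4% of log2 changes of 0.5, 1 and 2, with 7 false calls. With so few changed, these figures do not give the recovery in the real comparison, where 26.1% of probe sets were called. Not every same-numbered pair of arrays deviated together (over all lines r from -0.28 to 0.21 in 18 pairs, 4 of them over 0.1, against -0.28 to 0.27 and 4 over 0.1 in 36 other pairs), so no block was used. pandas 2.3.3 and numpy 2.4.6 served for tables.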

Additional observations from a re-analysis of the deposited data

Results flagged for a closer look

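Of the 379 genes named or listed, 24 were called in opposite directions in gid2-1 and in gid1-3 against T65 and were also called between both mutants. Of these, 14 were higher and 10 lower in gid2-1. The share of all genes that did so was not counted, and many of the 379 were chosen for a small p or a large change in gid2-1. The count of 24 thus has no background to be read against. Both comparisons with T65 use the same T65 arrays, so the difference is given as the contrast gid2-1 minus gid1-3, which holds none of them. Genes called in opposite directions against T65 in the same fit will nearly always be called in that contrast too. Its adjusted p is therefore no separate support for them. The log2 difference ± SE of the contrast is given with limma's adjusted p for the first of each group. Against T65, 50.8% of genes were called in gid2-1 and 56.4% in gid1-3, and no cause of a difference was tested.

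Of clock and light genes, PCL1 differed by 5.04 ± 0.41 (adjusted p = 2.6e-07), with 481 ± 66.9 in T65, 118 ± 3.08 in gid1-3 and 3873 ± 172 in gid2-1. PRR1 differed by 1.91 ± 0.08 and GI by 1.02 ± 0.08. The photosystem gene PSAG differed by -3.03 ± 0.07, with 4946 ± 356, 6657 ± 320 and 814 ± 59 in the same order of lines, and the Rubisco activase gene RCA by -0.95 ± 0.09.

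Heat and stress genes included the small heat-shock gene HSP24.1, which differed by -5.05 ± 0.11 (adjusted p = 3.2e-13), with 672 ± 12.9 in T65, 2863 ± 90.3 in gid1-3 and 87.7 ± 17.6 in gid2-1. The heat-shock factor gene HSFB2C differed by -2.59 ± 0.10, BURP02 by -3.45 ± 0.15 and the arginine decarboxylase gene ADC1 by -1.0 ± 0.08. SAPK9 was higher in gid2-1, by 3.66 ± 0.11, with 501 ± 17, 217 ± 34.9 and 2712 ± 120 in the same order, as were the proline synthesis gene P5CS2, by 1.22 ± 0.12, and DREB1G, by 0.66 ± 0.06.

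In defence, the chitin receptor gene CEBIP differed by -2.13 ± 0.08 (adjusted p = 4.1e-11), with 1249 ± 101 in T65, 2431 ± 121 in gid1-3 and 554 ± 41.5 in gid2-1. Rcb4 differed by -1.72 ± 0.07 and the P450 gene CYP701A8 by -1.13 ± 0.07. Among growth and hormone genes EXPB6 differed by 2.27 ± 0.09 (adjusted p = 6.7e-11), with 382 ± 20, 187 ± 3.64 and 897 ± 20.7. GH3.2 differed by -1.41 ± 0.08, the brassinosteroid P450 gene CYP90A4 by 0.80 ± 0.06, CKX5 by 1.87 ± 0.11 and the ethylene receptor gene ETR3 by 1.12 ± 0.08. Regulators and transporters were ONAC004 at 2.99 ± 0.16, MADS16 at 1.38 ± 0.14, the KNOX gene OSH71 at 1.24 ± 0.08 and the ABC transporter gene mdr17 at 1.18 ± 0.06.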

How the results depend on the processing

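The counts of probe sets were refitted under 16 other settings, which cover centring, quantile normalization, dim or cross-hybridizing probe sets left out, a pseudocount of 16, no variance trend, only the arrays of both lines, averaged probe sets, a replicate block and each array left out. Of 379 genes named or listed, 317 were called against T65, of which 231 had a value under all 16 and 200 of those kept call and direction. The other 86 had a value under 14 or 15, since their probe sets are left out as cross-hybridizing or dim, and 74 of them kept both where they were run. In all 43 lost the call at least once, and 4 of these turned. With arrays centred on spiked controls, 4631 probe sets were higher than in T65, against 7836; centred on medians, 3975 were higher than in gid1-3, against 6864. With the probe sets of a gene averaged, 4752 genes were higher than T65 and 9513 called, and against gid1-3 4449 were higher, 3447 lower and 7896 called, over fewer features. With a change of at least 2-fold also required, 2567 were higher, 2352 lower and 4919 called against T65, and 2325, 1247 and 3572 against gid1-3. Leaving out 1 array at a time gave 6915 to 7382 higher, 6126 to 6783 lower and 13041 to 14109 called against T65, and 6094 to 6293, 4340 to 4912 and 10507 to 11189 against gid1-3. The log2 change turned, with probe sets averaged, for EIL1 (LOC107276358) at -0.03, PHT1-1 at -1.63, YSL12 at -0.27 and RBCS-C at -0.45, and for PIP2-1 against gid1-3 at 0.09; with spiked-control centring it turned for MPK8 at -0.02. The causes were not tested. A replicate block gave 7803 higher, 7056 lower and 14859 called against T65 (6802, 5104 and 11906 against gid1-3); same-numbered arrays of T65 and gid2-1 correlated at -0.012, -0.0198 and -0.0734 in their deviations, so the numbers do not pair them. Of the probe sets 36.9 to 45.3% per array lay at or below the reporter level, where changes are measured poorly.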

Other observations

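ABC transporter genes were higher in 6 of 13 measured cases and lower in 3, with the deposited scaling and with spiked-control centring. ABCG44 rose from 1231 ± 60 to 5003 ± 390 (log2 2.02 ± 0.07, adjusted p = 1.7e-11) and ABCG37 from 1368 ± 32.1 to 4959 ± 457 (log2 1.85 ± 0.07), while ABCG42 fell from 3990 ± 59.6 to 1765 ± 69.5 (log2 -1.18 ± 0.06). Of 8 NAC transcription factor genes 4 rose and 1 fell, with NAC45 from 117, 121 and 104 to 447, 353 and 424 (log2 1.84 ± 0.12, adjusted p = 1.4e-08). In wax synthesis wsl3 rose from 443 ± 19.3 to 1053 ± 53.4 (log2 1.25 ± 0.07). The argonaute gene AGO18 read 510, 534 and 567 in T65 and 1606, 1416 and 1620 in gid2-1 (log2 1.53 ± 0.09, adjusted p = 3.7e-09). This call was lost when its probe sets were averaged. AGO2 fell (log2 -0.64 ± 0.08).

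Among transcription factor genes of other families, MYBS2, a MYB protein linked to sugar response, fell from 5467, 5387 and 5427 to 1829, 1908 and 1585 (log2 -1.62 ± 0.08, adjusted p = 4.3e-10), NF-YB10 fell (log2 -1.65 ± 0.10), as did YABBY2 (log2 -0.94 ± 0.06). SPL1, of the SBP family, rose from 1318 ± 118 to 2727 ± 215 (log2 1.05 ± 0.08). Hox22, of the HD-Zip family, fell (log2 -1.50 ± 0.06), and HOX1 rose by 1.23 ± 0.07. LTI6A, a cold-induced membrane protein gene, fell from 6444, 6656 and 6823 to 2045, 2029 and 1798 (log2 -1.76 ± 0.06, adjusted p = 2.2e-11).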
